A study of Mus musculus with 8 samples.

Results

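The VEGF and angiogenic factors are 10 genes, *Vegfa*, *Vegfb*, *Vegfc*, *Pgf*, *Flt1*, *Kdr*, *Nrp1*, *Nrp2*, *Angpt1* and *Angptl4*, chosen by name from the 54658 gene symbols of an RNA-Seq count table. Of these, 7 were among the 14404 genes abundant enough to be tested, and *Vegfc*, *Pgf* and *Kdr* were not. The table covers primary articular chondrocytes, the cells of joint cartilage, taken from femoral head cartilage of wild-type mice aged 3 weeks, whose strain and sex are not given. In 4 samples the cells were treated with IL-1β, an inflammatory cytokine, at 1 ng/mL for 24 h, and in 4 samples with vehicle. All 8 samples were cells released from cartilage by digestion and cultured in wells, in high-glucose medium with serum, away from the vessels and other tissues of the joint. The labels do not say whether samples came from separate cultures or animals, so p-values measure the spread between these samples, which may be technical.

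VEGF-A is a secreted growth factor that makes endothelial cells divide, migrate and become leaky. It acts through the receptor tyrosine kinases VEGFR1, encoded by *Flt1*, and VEGFR2, encoded by *Kdr*, of which VEGFR2 carries most of the signal while VEGFR1 binds the ligand tightly and also occurs as a soluble trap. Neuropilins are co-receptors that bind both VEGF and class 3 semaphorins, angiopoietin-1 stabilizes vessels through the receptor TIE2, and ANGPTL4 is a secreted inhibitor of lipoprotein lipase. Articular cartilage has no vessels, while the growth plate needs VEGF-A for the entry of vessels during bone growth.

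After IL-1β, *Angpt1* and *Angptl4* were upregulated 4.64-fold and 2.25-fold, *Vegfa*, *Vegfb*, *Nrp2* and *Nrp1* rose by smaller factors of 1.54 to 1.24, and *Flt1* fell to 0.579 of its vehicle level. *Angpt1* and *Angptl4* were differentially expressed genes (DEGs), meaning that edgeR's quasi-likelihood test gave a p below 0.05 after Benjamini-Hochberg adjustment and the level changed by a factor of over 2. Among all genes tested, 5.21% were DEGs, 2.86% upregulated and 2.35% downregulated. By the adjusted p-value alone, 6 of the 7 tested members were higher and 1 was lower, against 20.4% and 19.8% of all genes tested. The 4 IL-1β samples did not overlap the 4 vehicle samples in any of the 7, which was so for 36.8% of all genes tested. The members, and the related lists below, were chosen with earlier results of these data known, so such shares are descriptive only. *Angpt1* passed the filter on low counts only through its IL-1β samples, so its difference is in part set by the filter. Total counts were 10992355 to 17104351 per sample with IL-1β and 13970959 to 17456063 with vehicle, and 3 counts correspond to 0.172 to 0.273 CPM (counts scaled to a common library total).

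**Figure D1:**
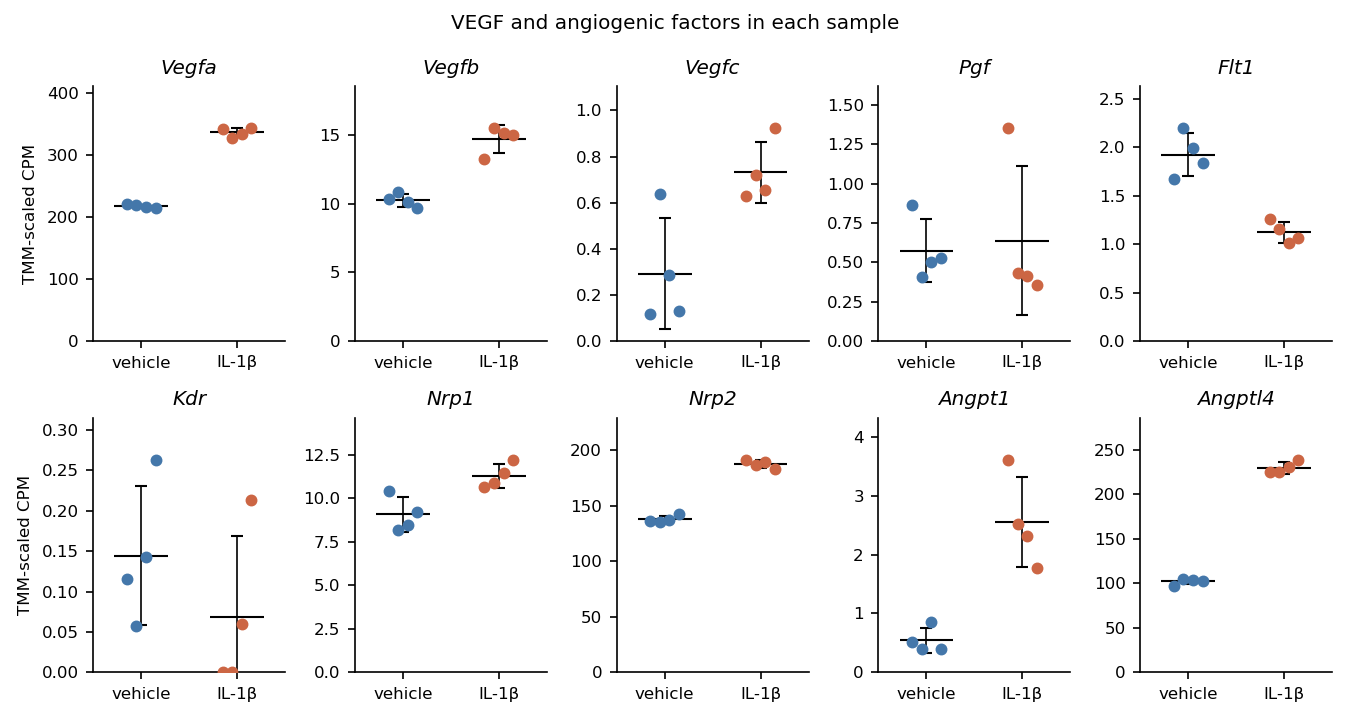
Abundance of each of the 10 genes, as CPM scaled by edgeR's TMM factors, in the 4 vehicle and 4 IL-1β samples. Each panel has its own linear axis from 0, points are samples, and bars are the mean and SD. *Vegfa* lay between 326.5 and 342.2 CPM with IL-1β and between 214.8 and 220.2 CPM with vehicle, and the groups of *Pgf*, *Vegfc* and *Kdr* overlap.

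The sequence before the start sites is shown for members that moved together, and for *Flt1*, which moved the other way. RefSeq promoters of 300 bases (250 before the start and 50 after it, GRCm38.p6) were at hand for 8 of the 10 genes, with 10 promoters in all, and *Angpt1* and *Angptl4* had none. GCGTG, a core of the hypoxia response element on either strand, occurred in 7 of the 10 promoters and in 32.4% of all 32851 promoters. The matches nearest to the start in the 5 tested genes with a promoter are printed below, since these genes carry the results on ligands and receptors. Capitals mark the core, which reads CACGC where it lies on the other strand.
*Vegfa*, chr17:46025364-46025393, minus strand: aagccctggagtGCGTGcccacgtcagaga
*Vegfb*, chr19:6987715-6987744, minus strand: ccggtggggagcGCGTGtttaggtcacatg
*Nrp1*, chr8:128358895-128358924, plus strand: caaccgggaaagCACGCggagagaaacttg
*Nrp2*, chr1:62703145-62703174, plus strand: ggcggcagggttGCGTGgcaccttaacttt
*Flt1*, chr5:147726178-147726207, minus strand: ctagcgccaccgCACGCgcgctctggcccc

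The core thus occurred before 4 of the 6 genes that rose and before *Flt1*, which fell. The remaining genes that rose, *Angpt1* and *Angptl4*, had no promoter to search. In *Vegfa* it lay before a start inside the gene, 218 bases upstream, and the promoter at the outer start of *Vegfa* held no match. The printed *Vegfa* window also holds ACGTG, the other core, on the opposite strand. ACGTG occurred in 1 of the 10 promoters and in 19.6% of all. GGGCGG, a binding motif of Sp1, occurred in 9 of the 10 promoters and in 35.7% of all, and the AP-1 motif TGANTCA in 0 of the 10 and in 7.81% of all. Overlaps between different motifs were not removed. Of the bases in the 10 promoters, 59.3 to 75.3% were G or C, and the set of all promoters was not matched for this. The part of base composition in these shares, and in that of the NF-κB motif below, was not tested.

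The NF-κB consensus motif, searched because IL-1β activates NF-κB, occurred in 3 of the 10 promoters and in 8.46% of all. It was found before 1 ligand and both tyrosine kinase receptors, with capitals marking the match.
*Vegfa*, chr17:46032476-46032505, minus strand: tagtggcctaGGGGCTCCCCgaaaggcggt
*Flt1*, chr5:147726084-147726113, minus strand: gatgaggggtGGGGGACCCCttgacgtcac
*Kdr*, chr5:75978510-75978539, minus strand: gccggacgcaGGGAGTCCCCacccctcccg

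These 3 genes differed in their response, with *Vegfa* higher, *Flt1* lower and *Kdr* too low to test. The PPAR response element, a repeat of 2 half-sites, was found in 0 of the 10 promoters and in 0.0396% of all.

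*Vegfa* (ENSMUSG00000023951.17), on chromosome 17 from 46016993 to 46032369 of GRCm38, was the most abundant VEGF ligand. Its abundance was 341.2, 326.5, 333.0 and 342.2 CPM in IL-1β replicates 1 to 4 and 220.2, 218.2, 215.9 and 214.8 CPM in vehicle replicates 1 to 4. Every IL-1β sample lay over 100 CPM above the vehicle samples, and the samples within a group were close to each other. With n = 4 per group, the mean was 217.3 ± 2.43 CPM (SD) for vehicle and 335.7 ± 7.38 CPM (SD) for IL-1β. The log2 fold change was 0.63 ± 0.0308 (standard error), with an adjusted p of 3.39e-16. The fold change was 1.54 (95% confidence interval 1.48 to 1.61). This was below the fold change of 2 that a DEG needs. The annotation (GENCODE vM21) gives *Vegfa* 13 transcripts, 8 of which are coding, and counts per gene do not tell its short, diffusible isoforms from the longer ones that bind matrix.

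*Vegfb* (ENSMUSG00000024962.13, chromosome 19, 6982473 to 6987651) encodes a ligand of VEGFR1 linked to fatty acid uptake. It had 13.2, 15.5, 15.1 and 15.0 CPM with IL-1β and 10.3, 10.9, 10.1 and 9.73 CPM with vehicle. IL-1β replicate 1 was the lowest of its group, and it still lay above every vehicle sample. The mean rose from 10.3 ± 0.472 to 14.7 ± 1.01 CPM (SD, n = 4 each), with a log2 fold change of 0.53 ± 0.0848 (standard error) and an adjusted p of 9.02e-06.

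*Vegfc* (ENSMUSG00000031520.6, chromosome 8, 54077606 to 54187096), a growth factor of lymphatic vessels, was below the filter. It had 7, 10, 11 and 13 reads with IL-1β and 2, 11, 4 and 2 reads with vehicle. Scaled to the totals this was 0.631, 0.721, 0.653 and 0.922 CPM with IL-1β and 0.115, 0.636, 0.285 and 0.131 CPM with vehicle. The groups overlapped through vehicle replicate 2, and an exact permutation test of the CPM, two-sided, gave p = 0.0571, where 4 samples against 4 allow 0.0286 at the least. In an unfiltered fit of 32379 genes the log2 fold change was 1.28 ± 0.437 (standard error), with an adjusted p of 0.0224.

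*Pgf* (ENSMUSG00000004791.7, chromosome 12, 85166635 to 85177790), placental growth factor, binds VEGFR1. It had 15, 6, 7 and 5 reads with IL-1β and 15, 7, 7 and 8 reads with vehicle. The groups overlapped, and in both groups replicate 1 held the most reads. The exact permutation test, two-sided, gave p = 0.943, and the fit without the filter a log2 fold change of 0.042 ± 0.394 (standard error), with an adjusted p of 0.966. At these counts a change of the size of that of *Vegfa* was not detectable.

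Divided by gene length, the 4 VEGF ligands among the 10 genes can be set beside each other. *Vegfa* made up 88.3 ± 0.488% (SD, n = 4) of their summed CPM per kilobase with vehicle and 89.0 ± 0.662% (SD, n = 4) with IL-1β. *Vegfb* made up 11.1 ± 0.378% and 10.4 ± 0.806%. The mixture of these 4 ligands was thus nearly the same in both groups, with ranges of 87.7 to 88.8% and 88.3 to 89.9% for *Vegfa* that overlapped. The sum leaves out *Vegfd*, a further ligand described below, which was higher after IL-1β. *Vegfc* and *Pgf* each stayed below 1% of the sum in every sample.

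*Flt1* (ENSMUSG00000029648.13, chromosome 5, 147561604 to 147726011) was the tested member that was lower after IL-1β. Its reads numbered 14, 16, 17 and 15 after IL-1β and 29, 38, 28 and 28 after vehicle. In CPM this was 1.26, 1.15, 1.01 and 1.06 with IL-1β and 1.67, 2.20, 2.00 and 1.84 with vehicle. Every IL-1β sample lay below every vehicle sample, at a level near the filter of 1 CPM. The log2 fold change was -0.79 ± 0.221 (standard error), with an adjusted p of 0.00481 and a ratio of 0.579 (95% confidence interval 0.423 to 0.792). Of the 6 transcripts annotated for *Flt1*, 2 are coding, and counts per gene do not separate the membrane receptor from its soluble form.

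*Kdr* (ENSMUSG00000062960.10, chromosome 5, 75932827 to 75978458) was close to absent. Its reads numbered 0, 0, 1 and 3 with IL-1β and 2, 1, 2 and 4 with vehicle. No fold change is given, since 7 of the 8 samples were at or under 3 reads, and the exact permutation test, two-sided, gave p = 0.343. At this depth only a large difference in *Kdr* would have been detectable.

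VEGFR1 and VEGFR2 are best known from endothelial cells, so the endothelial markers were read beside them. Of 11 endothelial markers, 2 passed the filter, and the summed level of the 11 was 10.7 to 12.0 CPM with IL-1β and 14.0 to 15.5 CPM with vehicle. Most of this sum was *Erg*, which chondrocytes also express, which was lower after IL-1β, at 8.71 ± 0.377 against 12.4 ± 0.352 CPM (SD, n = 4 each). *Egfl7*, the other marker that passed the filter, had 13 to 17 reads per sample with IL-1β and 9 to 17 with vehicle (adjusted p = 0.458). *Vwf*, *Tek* and *Esam* had at most 10 reads in any sample, and *Ptprb* at most 3. *Cldn5* had 0 reads in all 8 samples, and *Cdh5*, *Emcn* and *Tie1* had at most 2 reads in any sample. *Pecam1* had 0 to 9 reads per sample with IL-1β and 4 to 9 with vehicle, and its part in the fall of *Flt1* was not tested. In bulk samples, fewer cells of a type and less RNA per cell cannot be told apart.

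Neuropilins were the abundant VEGF-binding receptors in these cells. *Nrp2* (ENSMUSG00000025969.15, chromosome 1, 62703285 to 62818695), which also binds VEGF-C, had 191.1, 186.4, 189.7 and 182.9 CPM with IL-1β and 136.4, 135.4, 137.1 and 142.3 CPM with vehicle. The groups lay apart, with the lowest IL-1β sample over 40 CPM above the highest vehicle sample. The mean rose from 137.8 ± 3.10 to 187.5 ± 3.67 CPM (SD, n = 4 each), with a log2 fold change of 0.44 ± 0.0296 (standard error) and an adjusted p of 3.74e-13.

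*Nrp1* (ENSMUSG00000025810.9, chromosome 8, 128358604 to 128503363), the co-receptor of VEGF-A and receptor of semaphorin 3A, changed least of the 7. It had 10.6, 10.9, 11.5 and 12.2 CPM with IL-1β and 10.4, 8.20, 8.49 and 9.20 CPM with vehicle. The groups nearly met, as vehicle replicate 1 lay just under IL-1β replicate 1. The log2 fold change was 0.32 ± 0.0978 (standard error), with an adjusted p of 0.0106 and a fold change of 1.24 (95% confidence interval 1.08 to 1.43). Of its exon bases, 0.818% are shared with the microRNA gene *Mir1903*.

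Per kilobase, *Nrp2* made up 91.5 ± 0.632% (SD, n = 4) of the summed level of the 4 receptors with vehicle and 92.7 ± 0.525% (SD, n = 4) with IL-1β. The share of *Nrp1* was 7.29 ± 0.753% and 6.76 ± 0.487%. The 2 tyrosine kinase receptors in it were a small part of the sum, which leaves out *Flt4*. *Flt1* made up 1.12 ± 0.148% with vehicle and 0.486 ± 0.0458% with IL-1β, and the ranges of 0.974 to 1.31% and 0.433 to 0.539% did not overlap. *Kdr* made up at most 0.222% in any sample.

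**Figure D2:**
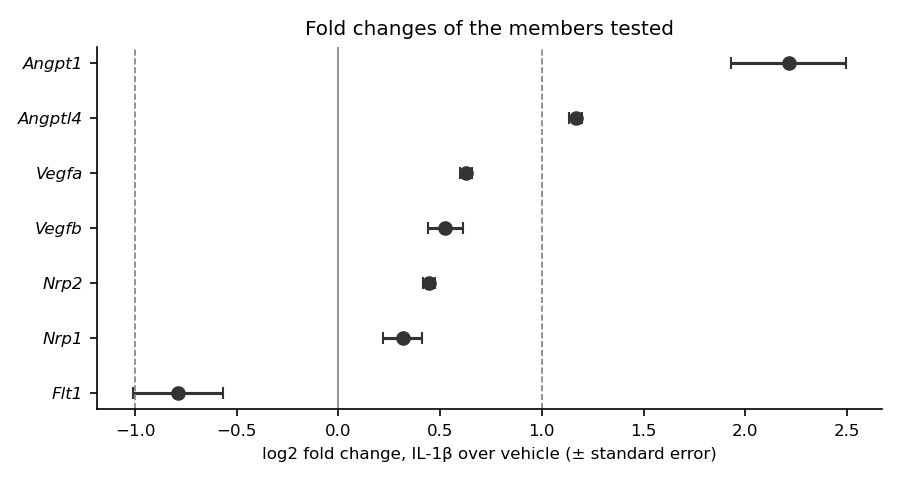
Log2 fold change of IL-1β over vehicle with its standard error for the 7 genes tested (4 samples per group). Dashed lines mark log2 fold changes of -1 and 1. *Angpt1* (2.21) and *Angptl4* (1.17) lie beyond 1, *Vegfa*, *Vegfb*, *Nrp2* and *Nrp1* lie between 0 and 1, and *Flt1* lies at -0.79.

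*Angpt1* (ENSMUSG00000022309.9, chromosome 15, 42424723 to 42676977) had the largest log2 fold change of the 7, on few reads. Its reads numbered 40, 35, 39 and 25 with IL-1β and 9, 7, 12 and 6 with vehicle. In CPM this was 3.60, 2.52, 2.32 and 1.77 with IL-1β and 0.519, 0.404, 0.856 and 0.394 with vehicle. The IL-1β samples spread over a factor of more than 2, and the lowest of them still lay above the highest vehicle sample. The log2 fold change was 2.21 ± 0.284 (standard error), with an adjusted p of 2.19e-07 and a fold change of 4.64 (95% confidence interval 3.10 to 6.94). Of the exon bases of *Angpt1*, 14.2% are shared with *Gm17473* on the opposite strand. Whether counting used the strand is not stated, so reads in the shared part cannot be told apart, while *Gm17473* itself was counted with 0 reads in 7 samples and 1 read in vehicle replicate 3.

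*Angptl4* (ENSMUSG00000002289.16, chromosome 17, 33773750 to 33781830) was the member with both high abundance and a fold change above 2. It had 224.9, 224.8, 230.2 and 238.5 CPM with IL-1β and 97.4, 104.6, 103.9 and 103.2 CPM with vehicle. All IL-1β samples were more than 2 times as high as any vehicle sample. The mean rose from 102.3 ± 3.29 to 229.6 ± 6.44 CPM (SD, n = 4 each), with a log2 fold change of 1.17 ± 0.032 (standard error) and an adjusted p of 2.97e-22. Its fold change of 2.25 had a 95% confidence interval of 2.15 to 2.35.

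For the 2 DEGs, the genes with the most similar pattern were taken by Pearson's r of log2(CPM + 1) over the 8 samples. For *Angptl4* these were *Xdh*, *H2-D1* and *Gpi1* (r of 0.9996, 0.9993 and 0.9992), with log2 fold changes of 2.46, 0.68 and 0.69. For *Angpt1* they were *Gm5627*, *Srpk2* and *Slc30a4* (r of 0.993, 0.992 and 0.991), with log2 fold changes of 3.68, 0.36 and 0.19. These r are mostly set by the difference between the groups.

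In vehicle samples the order of the levels per kilobase was *Vegfa* with 50.7 ± 0.567 (SD, n = 4), *Angptl4* with 28.9 ± 0.928, *Nrp2* with 11.6 ± 0.262, *Vegfb* with 6.39 ± 0.294 and *Nrp1* with 0.928 ± 0.102 CPM per kilobase. Neighbours among these 5 did not overlap in their samples. *Pgf*, *Flt1*, *Vegfc* and *Angpt1* followed, with means of 0.198 to 0.104 CPM per kilobase and overlapping neighbours, and *Kdr* was lowest, at 0.016. With IL-1β the first 5 kept their order, at 78.4, 64.8, 15.8, 9.18 and 1.15 CPM per kilobase. *Angpt1* moved from the ninth to the sixth place, with 0.491 ± 0.148 CPM per kilobase, and overlapped *Vegfc* below it, while *Flt1* moved to the ninth, with 0.0831 ± 0.00817.

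The level of *Vegfa* per kilobase was 1.76 times that of *Angptl4* with vehicle and 1.21 times with IL-1β, as the rise of *Angptl4* was the larger. By contrast, the ratio of *Vegfa* to *Vegfb* was 7.93 and 8.54, and that of *Nrp2* to *Nrp1* was 12.5 and 13.7.

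**Figure D3:**
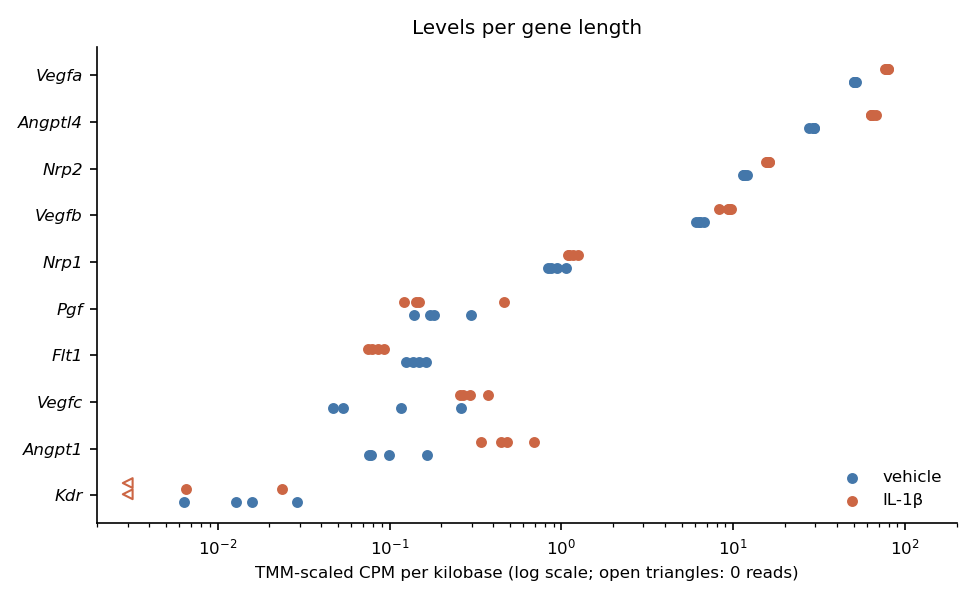
Level of each gene in each sample, as TMM-scaled CPM per kilobase of gene length on a log axis, with genes ordered by their vehicle mean. Open triangles mark samples with 0 reads. *Vegfa*, *Angptl4*, *Nrp2*, *Vegfb* and *Nrp1* lie apart from the other 5 genes, whose vehicle samples are all below 0.3 CPM per kilobase.

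The label of the cells was read against markers. All 9 chondrocyte markers were detected, with a sum of 16119 to 16738 CPM with vehicle and 4181 to 4593 CPM with IL-1β, and all 9 were downregulated DEGs. Over the same samples, summed markers of fibroblasts were 415.0 to 448.2 CPM with vehicle and 916.5 to 926.4 CPM with IL-1β. This sum was mostly *Dcn*, which chondrocytes also express. Of the other fibroblast markers, *Pdgfra* was higher (log2 fold change 0.58) and *Col3a1* lower (-0.34). *Col1a1* did not pass the test, and *Dpt* and *Thy1* were below the filter. Summed markers of leukocytes were 14.9 to 16.8 CPM with vehicle and 29.9 to 33.5 CPM with IL-1β, mostly *Cd68* and *Cd14*. Of the other leukocyte markers, *Lyz2* was lower (log2 fold change -0.60, adjusted p = 0.0364). *Ptprc*, *Adgre1*, *Csf1r* and *Fcgr1* were below the filter. The sums were lower with IL-1β for pericytes (1032 to 1113 CPM with vehicle, 499.0 to 563.2 CPM with IL-1β) and osteoblasts (221.9 to 227.5 and 111.8 to 128.1 CPM). The pericyte sum was mostly *Cspg4* (819.2 CPM with vehicle, 408.9 CPM with IL-1β) and *Pdgfrb* (240.5 and 115.0 CPM). *Rgs5*, *Myh11* and *Des* of the same list were below the filter. For red blood cells the sums were 0.920 to 1.67 CPM with vehicle and 1.43 to 1.80 CPM with IL-1β, with *Hbb-bt* at 0. Angiopoietin-1 is made by pericytes and fibroblasts among other cells, and the part of such cells in its rise was not tested.

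Among 12 other genes of the VEGF and angiopoietin families, 8 were tested, of which 5 were higher, 2 were lower and 1 did not pass the test, with a median log2 fold change of 0.29 (-0.0012 over all genes tested). Of these, 3 were upregulated DEGs and 1 was downregulated. For this list and those below, the shares over all genes tested were 20.4% higher, 19.8% lower and 5.21% DEGs. Like *Angpt1*, *Flt4* and *Angpt4* passed the filter only through the group in which they were higher, so their counts among the DEGs are in part set by the filter. *Angptl1*, one of the 2 lower genes, had overlapping groups (log2 fold change -0.54, adjusted p = 0.0495) and was not called by DESeq2 (adjusted p = 0.0922). *Flt4*, the VEGF-C receptor of lymphatic vessels, was at 1.24 ± 0.328 after IL-1β against 0.389 ± 0.226 CPM (log2 fold change 1.67, with SD over n = 4 here and for the other lists). *Vegfd*, a ligand of that receptor, rose from 1.01 ± 0.414 to 2.74 ± 0.334 CPM (log2 fold change 1.45), and *Angptl7* from 3.81 ± 0.373 to 11.7 ± 0.85 CPM (log2 fold change 1.61). *Angpt4* was at 0.581 ± 0.0912 after IL-1β against 1.19 ± 0.0829 CPM (log2 fold change -1.0). The TIE2 receptor of angiopoietin-1, *Tek*, was below the filter, with 3 to 10 reads per sample with IL-1β and 2 to 7 with vehicle.

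The semaphorins and plexins that share the neuropilins were all tested. Of 12 genes, 2 were higher, 5 were lower and 5 did not pass the test (median log2 fold change -0.32), with 1 upregulated and 3 downregulated DEGs. *Sema3c* rose from 81.6 ± 1.30 to 268.2 ± 9.30 CPM (log2 fold change 1.72 ± 0.0326 as standard error, adjusted p = 3.95e-26). *Sema3a*, *Sema3e* and *Sema3d*, which encode guidance cues, had log2 fold changes of -1.58, -1.09 and -1.09. Semaphorin 3E acts through *Plxnd1*, without a neuropilin in vessels, and *Plxnd1* was higher, with a log2 fold change of 0.98.

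Of 12 secreted inhibitors of vessel growth, 9 were tested, of which 8 were lower and 1 was higher, with a median log2 fold change of -0.62. Over all genes tested, 19.8% were lower and 20.4% higher. All 9 chondrocyte markers also fell after IL-1β (median log2 fold change -1.88). The part of that wider fall in the fall of the 8 inhibitors was not tested. *Thbs1* (log2 fold change -1.66), *Cnmd* and *Timp3* were downregulated DEGs. *Cnmd* encodes chondromodulin, a cartilage protein that keeps vessels out, and fell from 36.3 ± 2.22 to 12.3 ± 1.34 CPM (log2 fold change -1.56, adjusted p = 4.97e-17). *Timp3*, which encodes a metalloproteinase inhibitor that also blocks VEGFR2, fell from 6092 ± 218.1 to 2548 ± 111.0 CPM (log2 fold change -1.26). *Thbs2*, another of the 8, had overlapping groups, and without IL-1β replicate 1 its log2 fold change moved from -0.16 to -0.11 (adjusted p = 0.0526). The gene that was higher was *Cxcl10*, a chemokine that also halts vessel growth, at 1.70 ± 0.454 against 0.253 ± 0.0972 CPM (log2 fold change 2.76), and it passed the filter only through its IL-1β samples.

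Of 16 other secreted promoters of vessel growth, 7 were tested, of which 3 were higher and 4 were lower (median log2 fold change -0.59). *Adm*, encoding the vasodilator adrenomedullin, had a log2 fold change of 1.72, while *Apln* and *Ctgf* had log2 fold changes of -1.45 and -1.39, and *Cyr61* one of -0.61. *Ctgf* fell from 384.2 ± 10.1 to 146.6 ± 4.10 CPM. *Il6*, also on this list, was below the filter and is not in these counts. It had 17, 14, 17 and 26 reads in IL-1β replicates 1 to 4 and 0 reads in every vehicle sample.

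*Vegfa* and *Angptl4* are known targets of hypoxia-inducible factors. Of 15 genes of the hypoxia response, 13 were higher, 1 was lower and 1 did not pass the test, with a median log2 fold change of 0.52. Over all genes tested, 20.4% were higher and 19.8% lower. The lower gene was *P4ha1* (log2 fold change -0.24), whose groups did not overlap. *Egln3* and *Car9* were DEGs (log2 fold changes of 1.94 and 1.07), followed by *Bnip3* with 0.96 and *Egln1* with 0.93. No oxygen measurement was at hand, and the part of hypoxia-inducible factors in the rise of *Vegfa* and *Angptl4* was not tested.

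*Angptl4* is also a target of PPAR receptors, and its protein inhibits the product of *Lpl*. Of 11 genes of this list, 8 were tested, of which 5 were higher, 2 were lower and 1 did not pass the test (median log2 fold change 0.36). *Pparg* fell from 8.97 ± 0.868 to 2.23 ± 0.346 CPM (log2 fold change -1.98, adjusted p = 9.34e-13), and *Lpl* from 23.8 ± 3.23 to 8.01 ± 1.18 CPM (log2 fold change -1.56). *Plin2*, which coats lipid droplets, and *Pdk4*, a switch away from glucose use, had log2 fold changes of 1.12 and 0.90. The more abundant receptor gene *Ppard* rose from 43.8 ± 0.892 to 66.8 ± 5.06 CPM (log2 fold change 0.61, adjusted p = 1.11e-11). The third receptor gene, *Ppara*, was below the filter. *Angptl4* rose in the same samples in which *Lpl* and *Pparg* fell and *Ppard* rose. The part of PPAR receptors in the rise of *Angptl4* was not tested.

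**Figure D4:**
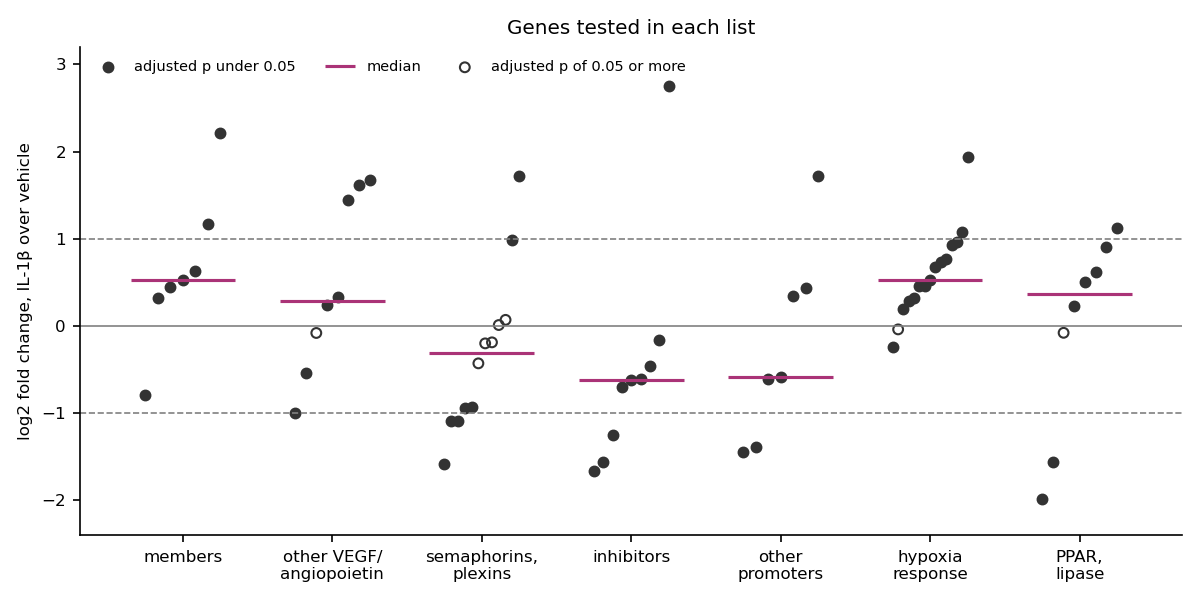
Log2 fold change of IL-1β over vehicle for every gene tested in the 10 genes described here and in 6 lists of related genes. Filled points had an adjusted p-value under 0.05, open points did not, and lines are medians. The medians of the inhibitors (-0.62) and other promoters (-0.59) lie below 0, and those of the VEGF and angiogenic factors (0.53) and the hypoxia response (0.52) above it.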

How the data were processed

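RNA-Seq covered 4 IL-1β and 4 vehicle samples, grouped by their labels. The authors trimmed reads with cutadapt, aligned them to mm10 (GENCODE vM20) by STAR and deposited featureCounts counts per gene symbol. The STAR version is 2.4.2a per the submitters' processing notes, and the methods name a later one. Whether the counts precede the RUVseq correction, and whether counting used the strand, is not stated. The table the authors deposited also lists the length of each gene in bases (another unit), used here for levels per kilobase. Genes with CPM above 1 (before TMM scaling) in at least 4 samples were tested after TMM scaling by edgeR 4.0.16 (R 4.3.3, limma 3.58.1), quasi-likelihood test, with Benjamini-Hochberg adjustment over all genes tested. The code was tested on simulated data. Confidence intervals of 95% use the t distribution. Smallest abundances are set at 3 counts and cover counting error only. Exon overlaps came from GENCODE vM21, where 10 of 10 members had the exon length of the table. Promoters came from RefSeq. *Ccn1* and *Ccn2* were found under *Cyr61* and *Ctgf*. All 10 members were named. In each related list, the 4 genes with the largest log2 fold change among those with an adjusted p-value under 0.05 were named. *Tek*, *Plxnd1*, *Angptl1*, *Thbs2*, *P4ha1*, *Ppard*, *Ppara* and *Il6* were named after their values were seen. The members and lists were chosen with earlier results of these data known. Alternatives were DESeq2 1.42.0, its size factors, library size only, other filters, a replicate block, 1 RUVs factor, glmTreat, and each sample left out. Leaving out *Gm26917*, which had the highest count in every sample, was added after seeing the data. The miRNA-Seq was not analysed here.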

Additional observations from a re-analysis of the deposited data

Results flagged for a closer look

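Values of single samples were compared within each group of 4, over 22 such groups (10 genes and the library totals, in both treatments). With the 95% critical value of Dixon for 4 samples, 1 sample stood apart, where chance alone would give 1.1. This was IL-1β replicate 1 for *Pgf*, with 1.35 CPM from 15 reads, while the remaining 3 samples of its group had 0.355 to 0.433 CPM. *Pgf* was below the filter on low counts, and its vehicle replicate 1 also held 15 reads.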

How the results depend on the processing

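The log2 fold changes of the 7 tested genes kept their direction in every alternative that included them, and their calls in all but glmTreat. With each sample left out in turn they lay between 0.62 and 0.64 for *Vegfa*, 0.50 and 0.57 for *Vegfb*, 0.44 and 0.46 for *Nrp2*, 0.27 and 0.39 for *Nrp1*, -0.86 and -0.71 for *Flt1*, 2.03 and 2.48 for *Angpt1*, and 1.14 and 1.18 for *Angptl4*. Leaving out a sample brought the adjusted p of *Nrp1* up to 0.0473 and that of *Flt1* up to 0.0226. Tested by glmTreat for a change beyond 2-fold, *Vegfa* (0.63), *Vegfb* (0.53), *Flt1* (-0.79), *Nrp1* (0.32) and *Nrp2* (0.44) had an adjusted p of 1, which left 2 of the genes, and 13 of the 20 DEGs of the related lists. With CPM above 1 in all 8 samples, 1 member was a DEG, since *Angpt1* was not tested. *Flt1* was not tested there either, since the filter used CPM before TMM scaling, which was 0.994 in IL-1β replicate 3. Without a filter, 3 were DEGs, with *Vegfc* added. Undivided by length, *Vegfa* made up 95.1% of the 4 ligands with vehicle and 95.4% with IL-1β, and *Nrp2* 92.5% and 93.8% of the 4 receptors. The replicate numbers are shared by the groups, but same-numbered samples did not deviate together (r of -0.0699 to 0.0416). With the replicate block, 2 members remained DEGs and 7 had an adjusted p under 0.05, with 411 genes upregulated and 340 downregulated in all (412 and 339 without it). The block changed no call of a member, and among the related genes *Angptl1* lost its call (adjusted p = 0.0579) and *Plxnd1* became a DEG (log2 fold change 1.0023, against 0.98 without it), with 21 DEGs in place of 20. *Angptl1* also lost its call with DESeq2, without *Gm26917* (adjusted p = 0.0519), and without IL-1β replicate 1 or 4 or vehicle replicate 2 or 4. In these 4 its log2 fold changes were -0.46, -0.48, -0.57 and -0.32, and edgeR's adjusted p was 0.0688 to 0.28. *Angpt4* lay on either side of a log2 fold change of -1 (-1.13 to -0.94 over the alternatives). *Angpt2* (without single samples, -0.23 to 0.10) and *Plxna1* (-0.00788 to 0.0296), neither of them called, changed direction, with log2 fold changes of 0.0328, 0.0182 and 0.104 for *Angpt2* in 3 of these, and -0.00643 and -0.00788 for *Plxna1* in 2. The cause was not tested. Depth limits *Kdr*, *Pgf*, *Vegfc*, *Flt1* and *Angpt1*, which rest on 0 to 40 reads per sample.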
